A study of Rattus norvegicus with 6 samples.

Results

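The Kelch-like adaptors and the cullin 3 ubiquitin ligase were followed in rat pancreatic islets at 3 and 12 months of age. The family was listed as 10 genes, namely the adaptors *Klhl9*, *Klhl13*, *Klhl2*, *Klhl7*, *Klhl12*, *Klhl20*, *Klhl24* and *Keap1*, the scaffold *Cul3* and the RING subunit *Rbx1*. It was chosen by a measured value of this same comparison, the rise of *Klhl9*, so the values of *Klhl9* between the ages are given as a description with no test. A probe matched 8 of the 10 genes, and each of these 8 was measured by 1 probe on 1 spot per array. All 8 were well above background on 3 or more arrays, the filter applied to every probe, and belong to the 11201 named genes tested. *Klhl2* and *Klhl13* were not analysed here on the arrays.

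Islets of male Wistar rats, isolated by collagenase digestion, were profiled on 1-colour mRNA arrays, with 3 arrays from 3-month-old rats and 3 arrays from 12-month-old rats. The animals carried no treatment or transgene according to the labels, and age was the only difference described. Values are quantile-normalized log2 signals, and a difference is the mean of the 12-month arrays minus the mean of the 3-month arrays on that log2 scale. Islets are mixtures of cells, so fewer cells of a type and less RNA per cell cannot be told apart.

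Cullin 3 is the scaffold of a RING ubiquitin ligase. At one end it binds Rbx1, which recruits the ubiquitin-conjugating enzyme, and at the other end it binds the BTB domain of an adaptor whose Kelch repeats hold the protein to be marked. Attachment of the ubiquitin-like protein Nedd8 activates the cullin, and the COP9 signalosome removes it. Keap1 is the best known of these adaptors, since it keeps the antioxidant transcription factor NRF2, encoded by *Nfe2l2*, at a low level.

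All 8 genes had a higher mean at 12 months than at 3 months. Among the 7 genes other than *Klhl9*, whose rise chose the family, the median difference was 1.06, the value of the widely spread *Keap1*. Over all named genes tested the median was -0.13, and 43.5% of genes had a positive difference. With arrays only shifted to a common 75th percentile the 2 medians were 0.72 and -0.34. With normexp background correction they were 0.72 and -0.08. Among genes well above background on all 6 arrays they were 0.70 and -0.09. At an adjusted p under 0.05 in limma, 1 of these 7 genes rose and 0 fell, beside 4.87% of all named genes tested that rose and 2.98% that fell. By the looser threshold used in the study (more than 2-fold, unadjusted p under 0.05), 3 of the 7 were higher (*Klhl7*, *Rbx1* and *Klhl12*), beside 9.8% of all named genes. In the same 3 genes every 12-month array was above every 3-month array, which held for 17.1% of all named genes. The 7 genes were listed with results of these arrays known, and the list was not tested as a set.

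**Figure D1:**
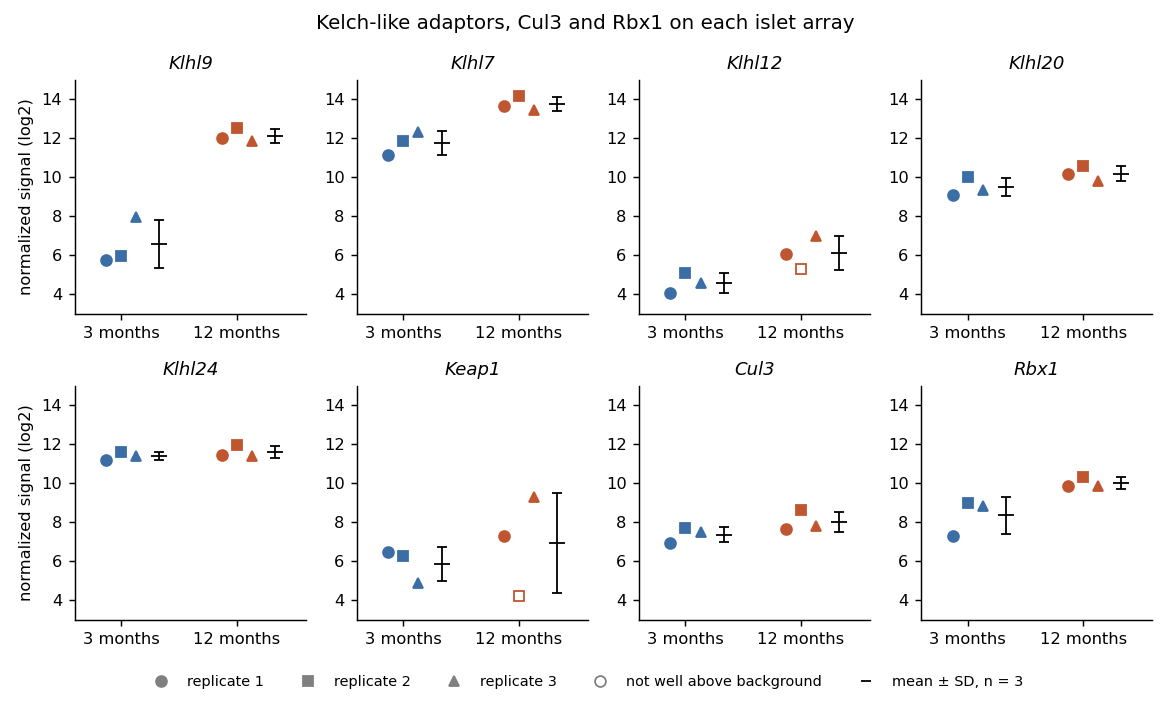
Normalized log2 signal of the 8 measured genes on each array, with the 3-month arrays on the left and the 12-month arrays on the right of each panel. Symbols are arrays, open symbols were not well above background, and bars are the mean ± SD of 3 arrays; *Klhl9*, *Klhl7*, *Klhl12* and *Rbx1* have no overlap between the ages.

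The arrays of the ages were read in 2 scans, and 0 scans held both ages. Age and scan therefore cannot be told apart in any comparison of the ages. Between 73.0% and 77.4% of probes were well above background on the 3-month arrays and between 59.5% and 64.2% at 12 months. The median raw signal of the negative control spots, before background subtraction, was 29.5 to 31 at 3 months and 89.5 to 91 at 12 months. Over all 17941 probes tested the median difference was -0.17, and it was -0.40 when arrays were only shifted to a common 75th percentile. In total 1502 probes passed an adjusted p of 0.05. Islet hormones were bright on all 6 arrays, with *Ins1*, which encodes insulin, at 18.43 to 18.86 and *Gcg*, which encodes glucagon, at 18.01 to 18.29. Digestive enzymes of acinar cells were bright as well, with *Cela2a* at 18.41 to 18.67 and *Pnlip* at 18.31 to 18.52.

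Markers of several cell types also differed between the ages, and their part in the results on the ligase was not tested. The counts of each marker list stand beside 4.87% of all named genes tested that rose and 2.98% that fell. Of 8 nerve and Schwann cell markers tested, 2 fell (*Prph* and *Sox10*) and 0 had a positive difference. In 7 of the 8 every 12-month array was below every 3-month array, beside 2494 of 11201 named genes. The summed signal of the 8 was 7872 to 13560 at 3 months and 3212 to 4766 at 12 months. Of 5 stellate and mesenchymal markers 1 rose (*Pdgfrb*), and all 5 had a positive difference. In 4 of the 5 every 12-month array was above every 3-month array, beside 17.1% of named genes. The summed signal of the 5 was 9728 to 16999.7 at 3 months and 25324 to 64920 at 12 months. Of 7 beta cell markers 2 rose (*Slc2a2* and *Slc30a8*). The summed signal of all 7 was 827424 to 968316 at 3 months and 1050930 to 1189620 at 12 months. This sum included the bright *Iapp*, named after its values were seen, with a difference of 0.95 (limma adjusted p = 0.0532). It also included *Ins1* (0.10) and *Ins2* (-0.12). The summed signal of the other endocrine markers was 718407 to 789384 at 3 months and 901082 to 1005800 at 12 months. Of 7 other endocrine markers 1 rose (*Hhex*), and 0 of 9 acinar, 0 of 4 duct, 0 of 4 endothelial, 0 of 6 immune and 0 of 3 red blood cell markers passed the test in either direction. The summed signal of the endothelial markers was 8369 to 11808.5 at 3 months and 4453 to 7107 at 12 months. In 3 of these 4 every 12-month array was below every 3-month array, beside 2494 of 11201 named genes. In 1 every 12-month array was above, beside 17.1% of named genes. *Cdh5* passed as lower with a 75th percentile shift and *Tek* with normexp background correction, both named after their values were seen.

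*Klhl9* encodes an adaptor that works with Klhl13 to bring Aurora B kinase to the cullin 3 ligase at mitosis. The 250 bases before its annotated start (RefSeq, GRCr8, chr5:108453677-108453926, minus strand, printed 5′ to 3′ on the gene's strand) are given below with those of *Klhl7*, the gene that passed the test, and *Rbx1*, the RING subunit. They show which simple motifs lie before the 3 measured genes of the family with the largest differences. Capitals mark, on either strand, the GC box GGGCGG, the CCAAT box CCAAT and the core of the antioxidant response element TGACNNNGC, to which NRF2 binds.
Klhl9: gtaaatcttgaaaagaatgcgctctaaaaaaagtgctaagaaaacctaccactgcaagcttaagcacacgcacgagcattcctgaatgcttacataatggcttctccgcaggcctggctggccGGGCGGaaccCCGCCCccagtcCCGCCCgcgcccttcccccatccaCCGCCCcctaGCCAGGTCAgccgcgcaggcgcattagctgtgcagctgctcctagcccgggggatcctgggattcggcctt
Klhl7: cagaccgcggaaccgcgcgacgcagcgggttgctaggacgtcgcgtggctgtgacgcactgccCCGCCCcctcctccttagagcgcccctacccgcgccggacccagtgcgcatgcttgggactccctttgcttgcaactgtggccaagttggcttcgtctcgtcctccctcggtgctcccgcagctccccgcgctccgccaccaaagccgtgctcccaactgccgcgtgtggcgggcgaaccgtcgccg
Rbx1: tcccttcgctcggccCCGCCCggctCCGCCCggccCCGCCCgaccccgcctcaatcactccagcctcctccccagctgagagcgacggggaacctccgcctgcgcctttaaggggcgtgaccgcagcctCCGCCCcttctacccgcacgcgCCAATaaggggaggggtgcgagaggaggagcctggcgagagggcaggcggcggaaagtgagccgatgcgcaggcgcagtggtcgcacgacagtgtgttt
The *Klhl7* stretch lies at chr4:11947797-11948046 on the minus strand, and the *Rbx1* stretch at chr7:114870729-114870978 on the plus strand.

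The *Klhl9* stretch held 4 GC boxes, 1 antioxidant response element core and 0 CCAAT boxes. The *Klhl7* stretch held 1 GC box, and the *Rbx1* stretch held 4 GC boxes and 1 CCAAT box. Their GC contents were 60%, 70.4% and 71.2%, while the median over 27457 rat promoters of the same length was 52%. The stretches of *Klhl12* (41.6%), *Klhl20* (49.2%) and *Keap1* (50.8%) lay below that median, and that of *Klhl12*, which met the study threshold as *Rbx1* did, held 0 of these motifs. Entries were found for 9 of the 10 genes, with no entry for *Cul3*. A GC box lay in 5 of the 9, beside 32.4% of all promoters, a CCAAT box in 2 of the 9, beside 34.3%, and the antioxidant response element core in 2 of the 9 (*Klhl9* and *Klhl13*), beside 10.2%. A match of letters does not show that a factor binds there.

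On the 3-month arrays the log2 signal of *Klhl9* was 5.78, 5.98 and 7.98, and on the 12-month arrays it was 11.99, 12.50 and 11.85. The ages did not overlap, and the young arrays were spread more widely, with replicate 3 above the other 2. The mean was 6.58 ± 1.22 (SD, n = 3) in young islets and 12.11 ± 0.34 (SD, n = 3) in old islets, a difference of 5.54, or 46.4-fold. The probe was well above background on all 6 arrays. Before normalization between arrays its signal was 25.7, 56.5 and 276 at 3 months and 7557, 10081 and 3140 at 12 months. These values are not corrected for differences in brightness between arrays. *Klhl24*, with a difference of 0.18 after normalization, was 656, 3119 and 3427 at 3 months and 5420, 6883 and 2330 at 12 months before it.

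This difference was the rank 4 rise among the 11201 named genes, and the rank 1 rise among the 9087 that were well above background on all 6 arrays. The neighbours in rank, which lay just above and just below it, were *Lig4* (6.16), *Gnai1* (6.0), *Baz2b* (5.44) and *Zfp800* (5.24), and none of these 4 was well above background on more than 1 of the 3-month arrays. Under the 18 alternative ways of processing, the difference of *Klhl9* lay between 4.72 and 6.37. The smallest value came with normexp background correction, which lifts dim signals.

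*Klhl7* encodes an adaptor whose gene is mutated in inherited retinal degeneration, and it was the gene of the family that passed the test. Its log2 signal was 11.11, 11.84 and 12.31 on the 3-month arrays and 13.65, 14.16 and 13.46 on the 12-month arrays. Each 12-month array was above each 3-month array. The means were 11.75 ± 0.60 (SD, n = 3) and 13.76 ± 0.36 (SD, n = 3), a rise of 2.00, or 4.0-fold, with an SE of 0.37, a 95% interval of 1.11 to 2.89 and an adjusted p of 0.0278 in limma. The rise stayed between 1.68 and 2.42 under all 18 alternatives, but it passed the threshold under 9 of them. The call was lost without 12-month replicate 1 (2.06, limma adjusted p = 0.0989), 12-month replicate 3 (2.15, 0.0715), 3-month replicate 1 (1.68, 0.0742) or 3-month replicate 2 (2.04, 0.0593).

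*Klhl12* encodes the adaptor that marks Sec31 of the vesicle coat for collagen export and Dishevelled of the Wnt pathway. Its log2 signal was 4.07, 5.09 and 4.58 at 3 months and 6.07, 5.28 and 6.98 at 12 months. The ages did not overlap, but the lowest 12-month array, replicate 2, was close to the highest 3-month array and was not well above background. The means were 4.58 ± 0.51 (SD, n = 3) and 6.11 ± 0.85 (SD, n = 3). The difference of 1.53 (2.89-fold, SE 0.48, 95% interval 0.38 to 2.68) did not pass after adjustment in limma (adjusted p = 0.0890, unadjusted 0.0165). Without 12-month replicate 2 the difference was 1.94 with a limma adjusted p of 0.0431. It was smaller with normexp background correction (0.61, limma adjusted p = 0.174) and with a 75th percentile shift (0.99, 0.210), both under 2-fold. Of the 17 alternatives that kept this gene, it passed the adjusted threshold under 2.

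*Klhl20* encodes an adaptor that directs the kinases DAPK1 and ULK1 to the ligase. Its log2 signal was 9.11, 10.01 and 9.33 at 3 months and 10.15, 10.58 and 9.83 at 12 months, so the ages overlapped. The difference was 0.70 (SE 0.34, 95% interval -0.10 to 1.51, limma adjusted p = 0.196). *Klhl24*, whose product acts on keratin 14 in skin, was the flattest member. It stood at 11.21, 11.59 and 11.43 at 3 months and at 11.46, 11.95 and 11.38 at 12 months. The overlap was almost complete, and the difference was 0.18 (SE 0.26, 95% interval -0.44 to 0.81, limma adjusted p = 0.641). A rise of more than 0.81 lies outside that interval, and without 12-month replicate 2 the difference was 0.0085.

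*Keap1*, the sensor of oxidative stress, was the member with the widest spread. Its log2 signal was 6.48, 6.26 and 4.88 at 3 months and 7.31, 4.22 and 9.28 at 12 months. The highest and the lowest of the 6 arrays were both 12-month arrays, and the lowest, replicate 2, was not well above background. The means were 5.87 ± 0.87 (SD, n = 3) and 6.94 ± 2.55 (SD, n = 3). The difference of 1.06 (SE 1.21, 95% interval -1.81 to 3.94, limma adjusted p = 0.559) was smaller than the spread of the 12-month arrays. It was -0.11 without 12-month replicate 3 and 2.42 without 12-month replicate 2, so 1 array set its sign.

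The arrays on which *Keap1* was lowest were 3-month replicate 3 and 12-month replicate 2, and it was highest on 12-month replicates 3 and 1. Of 9 markers of acinar cells, the enzyme-secreting cells around the islets, 5 had the same 2 lowest arrays, beside 9.39% of 11149 named genes with a value on every array. *Ctrb1*, *Cel* and *Rbpjl*, named after their values were seen, also had the same 2 highest arrays, which with the lowest held for 3.39% of named genes. *Ctrb1*, which encodes chymotrypsinogen, was 16.61, 17.07 and 14.02 at 3 months and 17.64, 14.39 and 17.91 at 12 months. *Rbpjl*, an acinar transcription factor, was 5.05, 6.10 and 3.45 at 3 months and 6.71, 2.66 and 7.95 at 12 months. The summed signal of the 9 markers was 1680750 to 2337460 at 3 months and 1564770 to 2513030 at 12 months, and 8 of the 9 were well above background on all arrays. The part of acinar RNA in the values of *Keap1* was not tested.

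**Figure D2:**
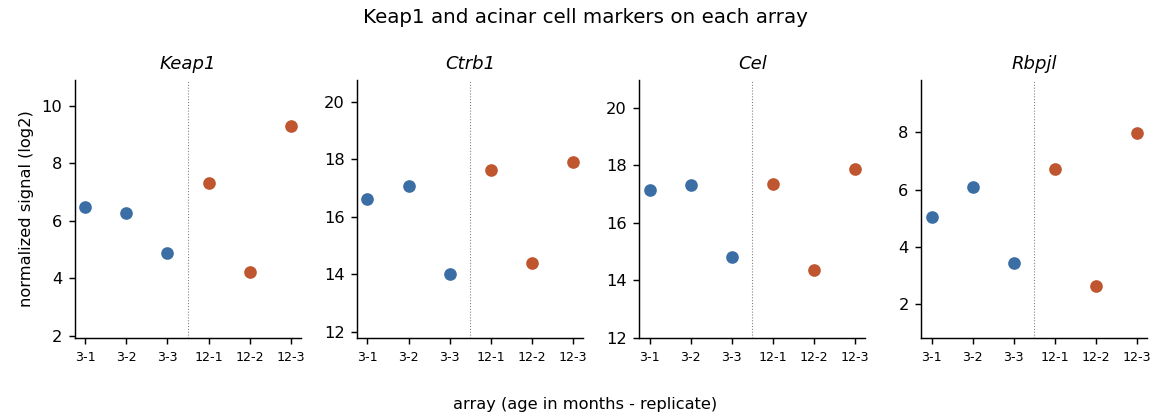
Normalized log2 signal of *Keap1* and of 3 acinar cell markers on each of the 6 arrays, labelled by age in months and replicate; each panel has its own log2 axis of equal span, and levels are not comparable between panels. All 4 genes were lowest on 3-month replicate 3 and 12-month replicate 2, and highest on 12-month replicate 3.

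*Cul3*, the scaffold itself, had a log2 signal of 6.92, 7.68 and 7.52 at 3 months and 7.66, 8.63 and 7.83 at 12 months. The ages overlapped, with the highest 3-month array just above the lowest 12-month array. The means were 7.37 ± 0.40 (SD, n = 3) and 8.04 ± 0.52 (SD, n = 3). The difference of 0.66 did not pass the test (SE 0.36, 95% interval -0.18 to 1.51, limma adjusted p = 0.235). It was 0.37 without 12-month replicate 2.

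*Rbx1*, the RING subunit that cullin 3 shares with most other cullins, stood at 7.28, 8.99 and 8.82 at 3 months and at 9.84, 10.35 and 9.87 at 12 months. The ages did not overlap, and 3-month replicate 1 lay well below the other 5 arrays. The means were 8.36 ± 0.94 (SD, n = 3) and 10.02 ± 0.29 (SD, n = 3). The difference was 1.66, or 3.16-fold, with an SE of 0.48 and a 95% interval of 0.51 to 2.81. After adjustment it missed the threshold (limma adjusted p = 0.0755, unadjusted 0.0113). It passed under 2 of the 18 alternatives, a 75th percentile shift (1.57, limma adjusted p = 0.0493) and array weights (1.51, 0.0436). Leaving out 1 array, the difference ran from 1.12 to 1.97.

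**Figure D3:**
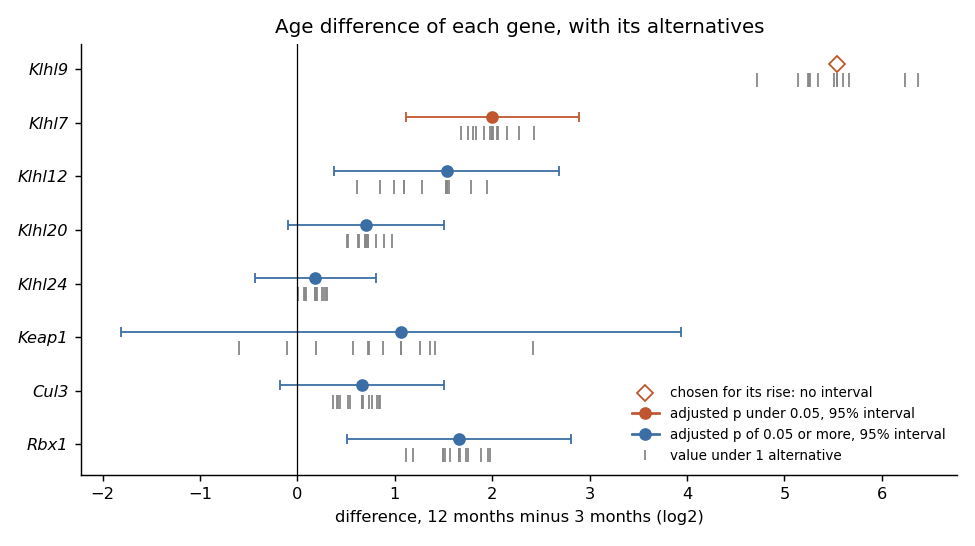
Difference between 12 and 3 months (log2, 12 months minus 3 months) of each measured gene, with the limma 95% interval of 6 arrays; *Klhl9* has no interval because its rise chose the family. Grey ticks are the values under the alternatives, and among these 8 genes only *Keap1* has ticks below 0.

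Within an age, a comparison that the choice of *Klhl9* did not use, the genes did not lie on the arrays evenly. On 3-month replicate 1, 7 of the 8 genes had their lowest value of that age, beside 36.7% of named genes, and *Keap1* was the exception. On 12-month replicate 2, 6 of the 8 genes had their highest value of that age, beside 43.0% of named genes, and *Klhl12* and *Keap1* had their lowest. With a 75th percentile shift in place of quantile normalization these counts were 5 of 8 (27.4% of named genes) and 6 of 8 (44.2%). The genes were measured on the same arrays, so these counts describe the arrays and were not tested.

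Over the 6 arrays the Pearson correlation with *Klhl9* was 0.976 for *Klhl7*, 0.874 for *Rbx1*, 0.748 for *Klhl12*, 0.720 for *Cul3*, 0.690 for *Klhl20*, 0.462 for *Klhl24* and 0.178 for *Keap1*. These values are descriptions of 6 arrays that share the split by age and scan. Among 9081 other named genes well above background on all arrays, the 5 most like *Klhl9* were *Rexo4* (r = 0.998), *Synj1* (0.998), *Pdik1l* (0.997), *Dhx36* (0.997) and *Tcea1* (0.997). Their differences between the ages ran from 1.39 for *Tcea1*, a transcription elongation factor, to 3.55 for *Rexo4*.

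The other genes of the pathway were grouped in 8 lists, of which 112 genes were tested. Of these 112, 11 rose and 0 fell, beside 4.87% of all named genes that rose and 2.98% that fell, and the median difference was 0.08. The counts of single lists are small and are read against the same shares. The total past the threshold, counted in either direction, depended on which arrays were included. Without 12-month replicate 2 it was 11, but not the same genes. *Eloc*, *Kctd13*, *Skp1* and *Ube2g1* did not pass there (limma adjusted p = 0.0628, 0.0700, 0.0623 and 0.0661). The total was 1 without 12-month replicate 1 and 1 without 12-month replicate 3. It was 3 without 3-month replicate 1, 6 without 3-month replicate 2 and 4 without 3-month replicate 3. Each of the 11 genes that rose with all arrays included kept a positive difference under all 18 alternatives. They passed the test under 7 to 15 of them. *Eloc*, *Kctd13*, *Skp1* and *Ube2g1* passed under 7, *Cops3* under 9, *Cul4b* and *Rhobtb3* under 10, *Kctd6*, *Uba3* and *Ube2d1* under 12 and *Uba6* under 15. With a 75th percentile shift, which moved the median of all named genes to -0.34, the list medians of neddylation (-0.05), of NRF2 with its targets (-0.11) and of the substrates (-0.18) turned negative, and *Klhl38* and *Cdc34*, named after their values were seen, fell, so that 7 pathway genes rose and 2 fell. Both also fell with normexp, as did *Rhobtb2*. *Klhl9*, *Cul4b*, *Eloc*, *Uba6*, *Ube2d1* and *Ube2g1* were also in the ubiquitin group that the study drew from these arrays, so their direction is not independent evidence.

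Of 21 other Kelch-like genes tested, 0 rose and 0 fell, their differences ran from -1.25 to 0.73, and their median was -0.31. Of 18 other BTB adaptors of cullin 3, 3 rose. *Rhobtb3* was 6.62, 8.31 and 6.10 at 3 months and 9.73, 10.31 and 10.13 at 12 months, a rise of 3.05 (SE 0.57, limma adjusted p = 0.0278). *Kctd6* rose by 1.84 (SE 0.26, limma adjusted p = 0.0140). *Kctd13* rose by 1.40 (SE 0.32, limma adjusted p = 0.0470). The median of this list was 0.13.

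Of 7 other cullins and ligase subunits, 3 rose, with a list median of 0.96. *Cul4b*, the scaffold of a ligase that works through Ddb1, was 3.76, 5.68 and 5.37 at 3 months and 7.26, 7.93 and 8.13 at 12 months, a rise of 2.84 (SE 0.54, limma adjusted p = 0.0291). *Skp1*, the bridge between cullin 1 and its F-box proteins, rose by 1.06 (SE 0.25, limma adjusted p = 0.0469). *Eloc*, which bridges cullin 2 and cullin 5 to their adaptors, rose by 1.00 (SE 0.23, limma adjusted p = 0.0461). With a 75th percentile shift only *Cul4b* passed in this list, while *Skp1* (0.74, limma adjusted p = 0.0909) and *Eloc* (0.72, 0.0937) did not.

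Of 12 neddylation and cullin exchange genes, 1 rose, and the list median was 0.14. It was *Uba3*, the catalytic subunit of the enzyme that activates Nedd8, at 7.26, 8.12 and 8.44 at 3 months and 10.39, 10.57 and 10.19 at 12 months, a rise of 2.45 (SE 0.35, limma adjusted p = 0.0147). *Nedd8* itself had a difference of 0.09 (SE 0.25, limma adjusted p = 0.825). Of 8 COP9 signalosome subunits 1 rose, *Cops3*, by 2.18 (SE 0.45, limma adjusted p = 0.0355), while the list median was -0.08.

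Of 11 ubiquitin-activating and ubiquitin-conjugating enzymes and ARIH partners, 3 rose, and the list median was 0.32. *Ube2d1*, a conjugating enzyme that works with many RING ligases, was 4.16, 6.25 and 6.33 at 3 months and 9.44, 10.04 and 9.21 at 12 months, a rise of 3.98 (SE 0.61, limma adjusted p = 0.0176). *Uba6*, the alternative activating enzyme for ubiquitin, was 5.89, 6.04 and 5.50 at 3 months and 8.38, 7.96 and 8.39 at 12 months, a rise of 2.44 (SE 0.26, limma adjusted p = 0.00682). *Ube2g1*, a conjugating enzyme that lengthens chains on targets of cullin 4 ligases, rose by 1.45 (SE 0.32, limma adjusted p = 0.0444).

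**Figure D4:**
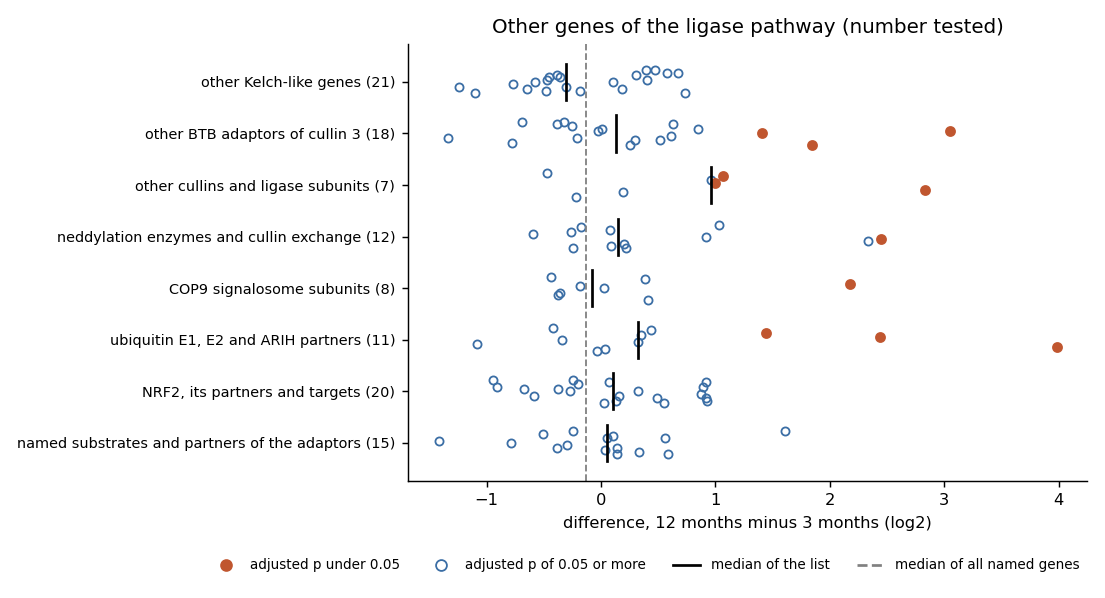
Difference between 12 and 3 months (log2) of each tested gene in the 8 lists of the pathway, with the number tested in parentheses. Filled points passed an adjusted p of 0.05 in limma, all 11 of them to the right of 0, black bars are list medians and the dashed line is the median of all named genes, -0.13.

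The genes of the NRF2 list and of the substrate list did not pass the test. The arrays measure mRNA, while the adaptors act on protein. Of 20 genes for NRF2, its partners and its targets, 0 rose and 0 fell at the adjusted threshold of limma, the median was 0.10 and the range -0.95 to 0.93. In 8 of these 20 every 12-month array was above every 3-month array, beside 17.1% of all named genes. In 2 of the 20 every 12-month array was below every 3-month array, beside 2494 of 11201 named genes. *Nfe2l2*, which encodes NRF2, was 11.45, 11.86 and 11.20 at 3 months and 12.56, 12.31 and 12.30 at 12 months, a difference of 0.89 (SE 0.26, limma adjusted p = 0.0774). With normexp background correction 4 genes of this list passed, *Nfe2l2*, *Mafg*, *Me1* and *Sqstm1*, the last 3 named after their values were seen. Under the 18 alternatives the count of this list past the threshold ran from 0 to 4, and it stayed at 0 under 11.

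Of 15 substrates and partners of the adaptors, 0 passed in limma, with a median of 0.05. *Aurkb*, which encodes the Aurora B kinase that Klhl9 and Klhl13 act on, had a difference of 0.59 (SE 0.34, limma adjusted p = 0.270). *Irs1*, the insulin receptor substrate, had a difference of 0.04 (SE 0.48, limma adjusted p = 0.963), with a 95% interval of -1.10 to 1.17.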

How the data were processed

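The deposited scanner files hold background-subtracted spot intensity from Agilent Feature Extraction 11.0.1.1, not normalized between arrays per the file headers, with other deposited columns that give probe names and mark controls, outliers and signals above background. A table of log2 values of 12145 probes, also deposited by the authors, correlated at 0.9996 or more with the values computed here and served as an alternative. Columns left unmapped numbered 0. Spots not marked as outliers were averaged per probe, and log2 values were quantile normalized over the 24684 non-control probes. Probes well above background on at least 3 of 6 arrays were kept (17944). A gene was represented by its brightest probe, named from RefSeq accessions through assembly GRCr8 (14274 of 15321 mRNA probes). Ages were compared with limma 3.58.1 in R 4.3.3 (two-sided, no block, Benjamini-Hochberg over all probes, threshold 0.05), tested on simulated data. An exact permutation test of 3 against 3 has 20 arrangements and cannot go below p = 0.1. Arrays have no read depth, and their number limits the precision. The p-values set the age difference against the spread between arrays of the same age. The arrays of an age shared a scan, so the p-values do not cover differences between scans.

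The members and all gene lists were chosen with earlier results of these data known. Named besides the members were up to 4 genes per pathway list with the largest difference among those passing the test, the direct partners *Nfe2l2*, *Irs1*, *Aurkb* and *Nedd8*, and the 5 genes most correlated with *Klhl9*. The lists were other Kelch-like genes, other BTB adaptors of cullin 3, other cullins and ligase subunits, neddylation and cullin exchange, COP9 signalosome, activating and conjugating enzymes with ARIH partners, NRF2 with partners and targets, substrates and partners, and markers of 9 cell types. The 18 alternatives changed the normalization, the background correction, the source table, the filter, the variance model, array weights, pairing, the test, the probe rule and the arrays included.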

Additional observations from a re-analysis of the deposited data

How the results depend on the processing

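Of the 8 genes, *Klhl9*, which was not tested, kept its direction under each of the 18 alternatives, and *Klhl20*, *Klhl24* and *Cul3* kept theirs and stayed short of the threshold. Only 6 genes were left when probes had to be well above background on all 6 arrays, without *Klhl12* and *Keap1*. The count of genes other than *Klhl9* past an adjusted p of 0.05 was 1, and it was 3 with array weights, 0 with the methods' t-test, 0 on the 4 arrays (2 of each age) whose names share an ending, and 0 to 2 leaving out 1 array. Their count at the threshold of the study was 3 and ran from 2 to 4. The rise of *Klhl7* fell short of the threshold with a 75th percentile shift (1.75), on those 4 arrays (1.83), with the methods' t-test (2.00) and leaving out 4 of the 6 arrays (1.68 to 2.28 over all 6). *Keap1* ran from -0.11 to 2.42 leaving out 1 array. All probes past the threshold numbered 1502, with 2339 without a filter, 4000 with array weights, 435 with the t-test, 0 on the 4 arrays and 208 to 2163 leaving out 1 array. Pathway genes past the threshold in either direction numbered 11, with 18 after normexp (3 of them lower at 12 months), 19 with array weights, 3 with the t-test, 0 on the 4 arrays and 1 to 11 leaving out 1 array. The causes were not tested.

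The supplementary tables of the study name a paired t-test without saying how rats of different ages were paired. The labels give no pairing either, and the deviations of same-numbered arrays from the age means correlated at 0.03 for number 1, -0.26 for number 2 and -0.29 for the remaining pair, so whether the arrays form pairs is not known here. With a replicate block of 3 pairs, 0 genes of the family other than *Klhl9*, 97 probes and 0 pathway genes passed, and *Klhl7* was 2.00 (limma adjusted p = 0.10). With the block on the numbered pairs only, 0 genes of the family other than *Klhl9*, 0 probes and 0 pathway genes passed, *Klhl7* was 2.42 (0.208) and *Keap1* was -0.60.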
